A study of Mus musculus with 2 samples.

Results

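Caspases are the cysteine proteases that carry out apoptosis, and the genes described here are 5 caspase genes and 3 genes that act beside them. Casp8, Casp9 and Casp2 encode initiator caspases, Casp6 encodes an executioner caspase and Casp4 an inflammatory caspase. Apaf1 encodes the scaffold of the apoptosome, Xiap an inhibitor of caspases and Endog a mitochondrial endonuclease. The genes were chosen by name, with earlier results of these data known, and a gene absent from the table would have been dropped. All 8 are therefore among the 14197 genes of the table. The data came from 4T1 cells, a murine breast cancer (BC) line labelled as wild type, treated for 24 h with 20 μM astragalin (AS), a plant flavonoid, or with the vehicle (0 μM). The table held 1 library per condition, so no difference below has a replicate check and no test between the conditions could be made. The deposited level was the RPKM, the reads per kilobase of exon and per 1000000 reads of the library, and the library sizes behind it were 44909683 reads for AS and 50820729 for the vehicle. Fold changes are log2 ratios (AS over vehicle) of the RPKM plus 0.1, and a gene was said to be past the threshold beyond 1 in either direction. Intervals are 95% Clopper-Pearson intervals of a gene's reads. They are meant for counting error only and leave out the spread between cultures. Reads without molecular identifiers are not independent molecules, so the intervals may be too narrow even for counting error.

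The epithelial origin of the cells was visible in the table. All 7 epithelial markers were listed, with summed RPKM of 1809 for AS and 2312 for the vehicle, and Krt18, a keratin of simple epithelia, was the highest at 707 and 902 RPKM. Of 7 leukocyte markers 4 were listed, and Ptprc, the pan-leukocyte gene, had 0.116 RPKM in AS-treated and 0.114 RPKM in vehicle-treated cells. Summed over the 4, the level was 26.9 RPKM for AS and 30.5 for the vehicle, most of it from Cd68, a lysosomal gene, at 24.0 and 28.1. Of 5 fibroblast markers 3 were listed, with a summed RPKM of 5.49 and 5.21 and Pdgfra as the highest at 4.24 and 4.16, and of 4 endothelial markers 0 were listed. In cultures measured in bulk, fewer cells that express a gene and less of its RNA per cell cannot be told apart.

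Death signals reach the caspases by separate routes. Death receptors at the cell surface recruit and activate the caspase encoded by Casp8. Damage to mitochondria releases cytochrome c, which assembles Apaf1 protein and the caspase encoded by Casp9 into the apoptosome. Both routes converge on executioner caspases, some of which Xiap protein blocks, while the inflammatory caspases open the pore protein gasdermin D. All of these proteins are held as inactive precursors or are kept in check by inhibitors, so the level of an mRNA is not a measure of caspase activity.

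Most of these genes had nearly the same level in both libraries. A total of 5 of the 8 genes, Casp8, Casp9, Casp2, Apaf1 and Xiap, had log2 fold changes within 0.2 of 0, as did 56.1% of all genes. Casp4 was higher in the AS library, and Casp6 and Endog were lower. Past the threshold of 1 there were 0 genes higher with AS, where 0.662% of all genes were, and 1 gene lower, Endog, where 0.31% of all genes were. At the study's other threshold, a ratio of about 1.5 in either direction, Casp4 was also counted, as 1 gene higher against 3.56% of all genes, and Endog stayed the 1 gene lower against 2.01%. The median log2 fold change of the 8 genes was 0.013, beside 0.066 for all genes, and 2 of the 8 lay above the median of all genes. The counting interval included 0 for 4 of the 8 genes and left it out for Casp4, Casp6, Xiap and Endog. At this depth the interval also left out 0 for 57.3% of all genes, so this alone sets no gene apart.

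**Figure D1:**
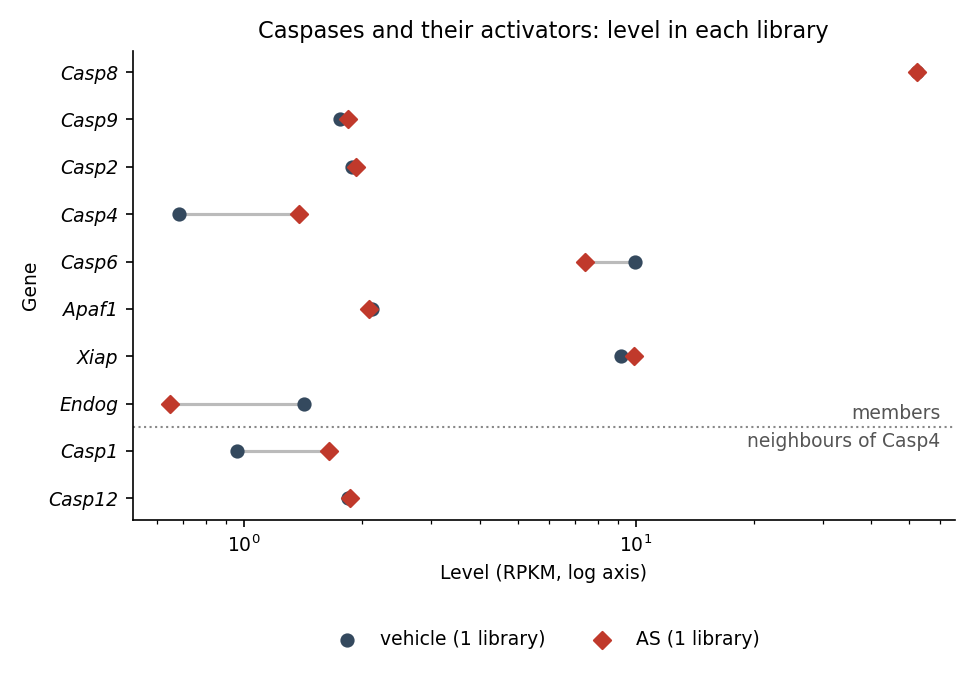
RPKM of each gene on a log axis in the vehicle library (circles) and the AS library (diamonds), with Casp1 and Casp12, the neighbours of Casp4, below the dotted line. Casp8 stands above 50 RPKM in both libraries, and the visible gaps are those of Casp4, Casp6, Endog and Casp1.

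The levels, which are per length and so can be set beside each other, spanned a wide range. Casp8 was by far the most abundant, and it held 67.4% of the summed RPKM of the 8 genes with AS and 65.9% with the vehicle. Its level was 28.2 times that of Casp9 in AS-treated cells and 29.7 times in vehicle-treated cells. Below it came Xiap and Casp6, then Apaf1, Casp2 and Casp9 close together, and last Casp4 and Endog. Neighbours changed places between the libraries at 2 points of this order. Casp6 stood above Xiap in the vehicle library and below it in the AS library, and Endog stood above Casp4 in the vehicle library and below it in the AS library. Without replicates, it cannot be said which neighbours differ beyond the spread between cultures.

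Among the initiators, Casp8 had 52.1 RPKM in AS-treated cells (6773 reads) and 52.4 RPKM in vehicle-treated cells (7702 reads). These levels were nearly equal. Its log2 fold change was -0.0070 with an interval from -0.05 to 0.04, the narrowest of the 8 genes, and its level lay at percentile 92.9 of all genes with AS and 92.7 with the vehicle. Casp8 lies on chr1:58795374-58847503 on the plus strand (GENCODE M21 annotation of GRCm38). Casp9 had 1.85 RPKM in AS-treated cells (432 reads) and 1.76 RPKM in vehicle-treated cells (466 reads), a log2 fold change of 0.065 with an interval from -0.12 to 0.26. Casp2, whose product is activated in the PIDDosome complex, had 1.94 RPKM in AS-treated cells (614 reads) and 1.89 RPKM in vehicle-treated cells (678 reads). Its log2 fold change was 0.034 with an interval from -0.12 to 0.20. Neither Casp9 nor Casp2 was detectably different between these libraries at this depth. Casp9 lies on chr4:141793612-141815976 and Casp2 on chr6:42264985-42282508, both on the plus strand.

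The apoptosome scaffold and the caspase inhibitor were close to level as well. Apaf1, on chr10:90989311-91082770 on the minus strand, had 2.09 RPKM in AS-treated cells (849 reads) and 2.13 RPKM in vehicle-treated cells (977 reads). Its log2 fold change was -0.023 with an interval from -0.16 to 0.11. The level of Apaf1 was 1.13 times that of Casp9, its partner in the apoptosome, in AS-treated cells and 1.21 times in vehicle-treated cells. Xiap, on chrX:42059679-42109656 on the plus strand, had 9.94 RPKM in AS-treated cells (4225 reads) and 9.21 RPKM in vehicle-treated cells (4431 reads). The log2 fold change was 0.11 with an interval from 0.05 to 0.17, and the median of all genes, at 0.066, lay within it. Xiap stood at 5.37 times the level of Casp9, which it inhibits, in AS-treated cells and 5.22 times in vehicle-treated cells.

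Casp6 was lower in the AS library. Its product cleaves nuclear lamins among other substrates. Casp6 had 7.41 RPKM in AS-treated cells (1859 reads) and 9.98 RPKM in vehicle-treated cells (2833 reads), so that the vehicle level was 1.35 times the AS level. The log2 fold change of -0.42 had an interval from -0.51 to -0.34, and 4.49% of all genes had a fold change as low or lower. It was past neither threshold. Casp6 lies on chr3:129901425-129914103 on the plus strand.

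Casp4, the mouse gene of the caspase that senses cytosolic lipopolysaccharide, was higher in the AS library. It had 1.38 RPKM in AS-treated cells (230 reads) and 0.684 RPKM in vehicle-treated cells (129 reads), a level 2.02 times as high with AS. The log2 fold change was 0.92, number 131 of all genes from the highest. From the reads alone it was 1.01, with an interval from 0.70 to 1.34, so Casp4 stood on one or the other side of the threshold of 1 by the amount added: it was past it with 0 RPKM added (1.01) and at 0.50 with 1 RPKM added. Casp4 lies on chr9:5308828-5336783 on the plus strand, between 2 related caspase genes that are 1562 bases and 8646 bases away. On the near side, Casp1, the gene of the caspase that matures interleukin-1 beta, had 1.65 RPKM in AS-treated cells (233 reads) and 0.960 RPKM in vehicle-treated cells (153 reads). Its log2 fold change was 0.73 with an interval from 0.48 to 1.09. On the far side, Casp12 had 1.87 RPKM in AS-treated and 1.84 RPKM in vehicle-treated cells, a log2 fold change of 0.017 with an interval from -0.20 to 0.24. The counting intervals of Casp4 and Casp1 overlapped each other, and that of Casp12 overlapped neither. These 3 genes were the only ones with a single annotation entry that the table held within 500 kb of Casp4. The numbers of reads of Casp1 were taken from the ratio of its RPKM values, since its exon length in the table was not that of the annotation used here.

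**Figure D2:**
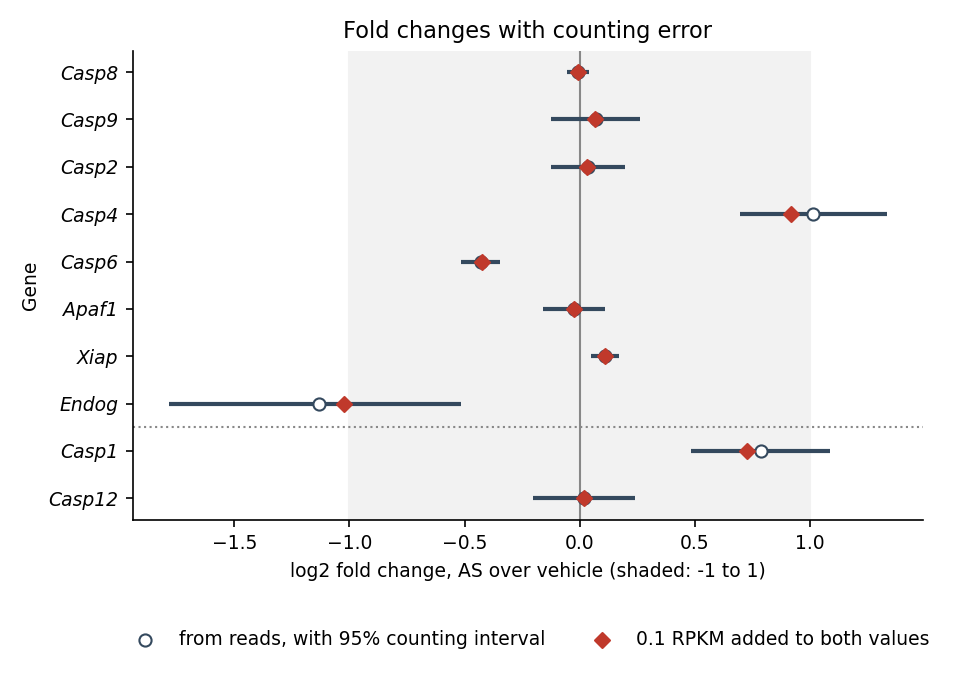
Log2 fold change of AS over vehicle for the 8 genes and for Casp1 and Casp12, the neighbours of Casp4, from RPKM with 0.1 added (diamonds) and from reads alone (circles) with the 95% counting interval (lines). Endog is the 1 gene whose diamond lies outside the shaded band from -1 to 1, and the intervals of Casp4 and Casp1 lie apart from that of Casp12.

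Endog had the lowest AS level and the fewest reads of the 8 genes. Its product is an endonuclease of the mitochondrial intermembrane space that can cut nuclear DNA after release. Endog had 0.649 RPKM in AS-treated cells (31 reads) and 1.43 RPKM in vehicle-treated cells (77 reads), a level 2.19 times as high with the vehicle. The log2 fold change was -1.03, number 41 of all genes from the lowest, and with 1 RPKM added it was -0.56. From the reads alone it was -1.13, with a wide interval from -1.79 to -0.52. Among the 1580 genes with a mean under 100 reads, 1.71% were past the threshold downward, a larger share than the 0.22% of the 5908 genes with a mean from 100 to 1000 reads. Endog lies on chr2:30171493-30174069 on the plus strand, and 379 of its 1063 exon bases (35.7%) are also exon of Spout1 on the minus strand. Spout1 had 5.77 RPKM in AS-treated cells (780 reads) and 6.54 RPKM in vehicle-treated cells (1000 reads), a log2 fold change of -0.18. The library kit keeps the strand, but the strand setting of the counting is not given in the sources used here, so the reads of Endog are uncertain. The part of Spout1 in the value of Endog was not tested.

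**Figure D3:**
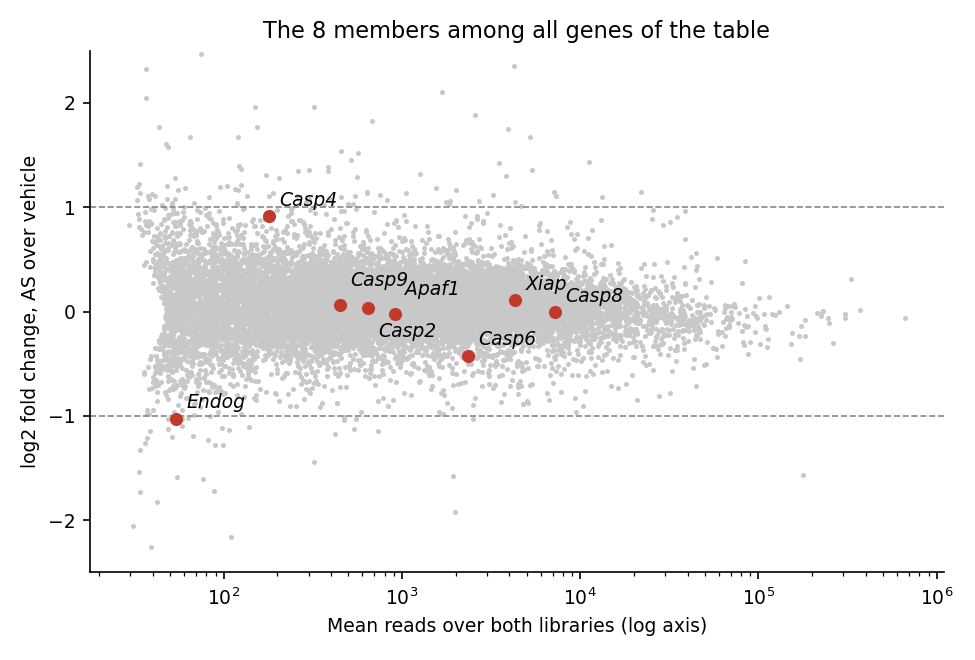
Log2 fold change of AS over vehicle against the mean reads of both libraries (log axis) for all genes (grey) and the 8 genes (red), with dashed lines at -1 and 1; 5 genes lie beyond the axis limits of 2.5. Endog lies where genes have few reads and wide scatter, and Casp8 and Xiap where the scatter is narrow.

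The promoters of Casp4, Casp6 and Endog are shown because these 3 genes differed most between the libraries. They are from RefSeq on GRCm38.p6, from 250 bases before to 50 bases after the first start site listed for each gene, and a window was found for all 8 genes. Capitals mark matches, on either strand, to 10 motifs that were chosen with the values of the genes known. The windows are chr9:5308599-5308898 for Casp4, chr3:129901165-129901464 for Casp6 and chr2:30171274-30171573 for Endog, all on the plus strand.
Casp4: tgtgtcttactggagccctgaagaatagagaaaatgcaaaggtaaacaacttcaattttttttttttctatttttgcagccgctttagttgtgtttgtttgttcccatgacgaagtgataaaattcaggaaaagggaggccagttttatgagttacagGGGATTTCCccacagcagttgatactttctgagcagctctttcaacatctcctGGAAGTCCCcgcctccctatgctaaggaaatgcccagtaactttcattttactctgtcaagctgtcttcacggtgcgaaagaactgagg
Casp6: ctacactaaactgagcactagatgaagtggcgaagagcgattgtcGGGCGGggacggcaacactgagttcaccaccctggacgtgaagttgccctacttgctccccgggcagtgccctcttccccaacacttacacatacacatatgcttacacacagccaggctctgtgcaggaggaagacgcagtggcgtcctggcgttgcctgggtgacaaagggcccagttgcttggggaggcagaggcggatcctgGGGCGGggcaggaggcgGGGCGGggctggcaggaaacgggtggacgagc
Endog: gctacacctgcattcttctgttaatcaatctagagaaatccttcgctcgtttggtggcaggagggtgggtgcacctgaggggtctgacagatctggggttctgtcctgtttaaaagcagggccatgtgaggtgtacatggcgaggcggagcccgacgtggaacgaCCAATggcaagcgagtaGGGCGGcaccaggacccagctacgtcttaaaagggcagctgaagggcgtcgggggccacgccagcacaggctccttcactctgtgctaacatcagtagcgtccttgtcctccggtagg

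Of the 10 motifs the Casp4 window held only that of NF-kB (GGGANTTNC), which 4.35% of all 27025 promoters held and which was in no other of the 8 windows. It was read as GGGATTTCC from position -92, counted from the start site. A match on the other strand lies from position -39, where the strand printed above reads GGAAGTCCC. The window is poor in G and C, at 42% with 5 CpG dinucleotides, where 14.8% of promoters had a lower GC content. The window of Casp8 had the same GC content, 42%, and held only a CCAAT box (CCAAT), at position -202. It lies at chr1:58802252-58802551, inside the gene and away from its annotated start at 58795374. The Casp6 window had a GC content of 62% and held 3 GC boxes of the Sp1 type (GGGCGG), and the Endog window, at 57.7%, held 1 GC box and 1 CCAAT box. GC boxes were present in 6 of the 8 genes and in 35.9% of all promoters, and CCAAT boxes in 3 of the 8 genes and in 37.9%. The composite element of CHOP and ATF4 (TGATGNAA), found in 4.06% of promoters, was in the windows of 0 of the 8 genes. The same was true of the ERSE, a motif of chaperone promoters (0.13% of promoters), the AP-1 motif (TGANTCA, 7.93%), the core of the ARE (TGACNNNGC, 12.5%), the E2F motif (TTTNGCGC, 1.38%) and the TATA box (TATAAA, 14.2%). The core of the ISRE (GAAANNGAA, 8.57% of promoters) was in the window of Xiap only. That window, chrX:42068148-42068447, also lies inside its gene, whose annotated start is 42059679. Xiap had 3 windows and Casp4 had 2, and only the first of each was searched. The counts over the 8 genes thus rest on start sites of unlike position. Outside the 8 genes, the windows of the neighbours of Casp4 were searched as well. That of Casp1 held no match to the 10 motifs, and that of Casp12 held CCAAT boxes and the core of the ARE. A match is a run of letters and not a bound site, and the absence of one says nothing of sequence outside these windows.

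The genes around the 8 in the cell death pathways were taken from 10 hand-written lists, of which 79 of 103 genes were in the table. Of these 79 genes 0 were past the threshold of 1 in either direction, where 0.662% of all genes were higher and 0.31% lower. At a ratio of 1.5, 3 were higher with AS and 0 were lower, where 3.56% and 2.01% of all genes were. The 3 were Casp1, Ghitm and Dnase2a. The median over the 79 genes was 0.033, beside 0.066 for all genes.

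Of the other caspases 4 of 5 listed genes were in the table, with a median log2 fold change of 0.14. The highest of them was Casp1 and the lowest Casp12, both described above.

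Among the 10 genes of mitochondrial release in the table, Ghitm, a gene of the inner mitochondrial membrane, had the largest difference and the highest level. It had 67.8 RPKM in AS-treated and 40.3 RPKM in vehicle-treated cells, a log2 fold change of 0.75 with an interval from 0.71 to 0.79. Cycs, the gene of cytochrome c, was the lowest of the list, with 12.0 RPKM in AS-treated and 16.0 RPKM in vehicle-treated cells and a log2 fold change of -0.41. Of the 7 genes of the IAP family and its antagonists, Birc5, the gene of survivin, which is also a mitotic gene, had 34.5 RPKM in AS-treated and 48.7 RPKM in vehicle-treated cells. Its log2 fold change of -0.50 was the lowest of that list, and Naip2, with 58 and 54 reads, had the highest at 0.20. Naip2 belongs to a family of near-identical genes, so its reads are uncertain.

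On the death receptor side, the 12 genes in the table lay between -0.26 and 0.57, with a median of 0.035. The lowest was Mlkl, the effector of necroptosis and the most abundant gene of the list, with 40.8 RPKM in AS-treated and 49.0 RPKM in vehicle-treated cells. The highest was Tnfrsf21, a death receptor gene, with 1.35 RPKM in AS-treated and 0.881 RPKM in vehicle-treated cells. Chosen after their values were seen, Fadd, the adaptor of Casp8, had 5.34 and 4.37 RPKM (log2 fold change 0.28), and Cflar, its inhibitor, 5.70 and 5.57 RPKM (0.033). Of the PIDDosome genes that act with Casp2, Pidd1 had 0.261 RPKM in AS-treated cells (53 reads) and 0.408 RPKM in vehicle-treated cells (94 reads), and a log2 fold change of -0.50. Cradd had 1.13 and 1.03 RPKM and a log2 fold change of 0.12.

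Of the genes of inflammasomes and pyroptosis, the setting in which the inflammatory caspases act, 6 of 13 were in the table. Those not listed were 6 sensors and the adaptor Pycard. Il18 had the lowest fold change, with 1.94 RPKM in AS-treated and 2.88 RPKM in vehicle-treated cells (log2 fold change -0.54), and Il1a had the highest, with 62.6 and 53.2 RPKM (0.24). Gsdmd, the gene of gasdermin D and named after its values were seen, had 1.68 RPKM in AS-treated cells (179 reads) and 2.14 RPKM in vehicle-treated cells (258 reads), and a log2 fold change of -0.33. It was past neither threshold.

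**Figure D4:**
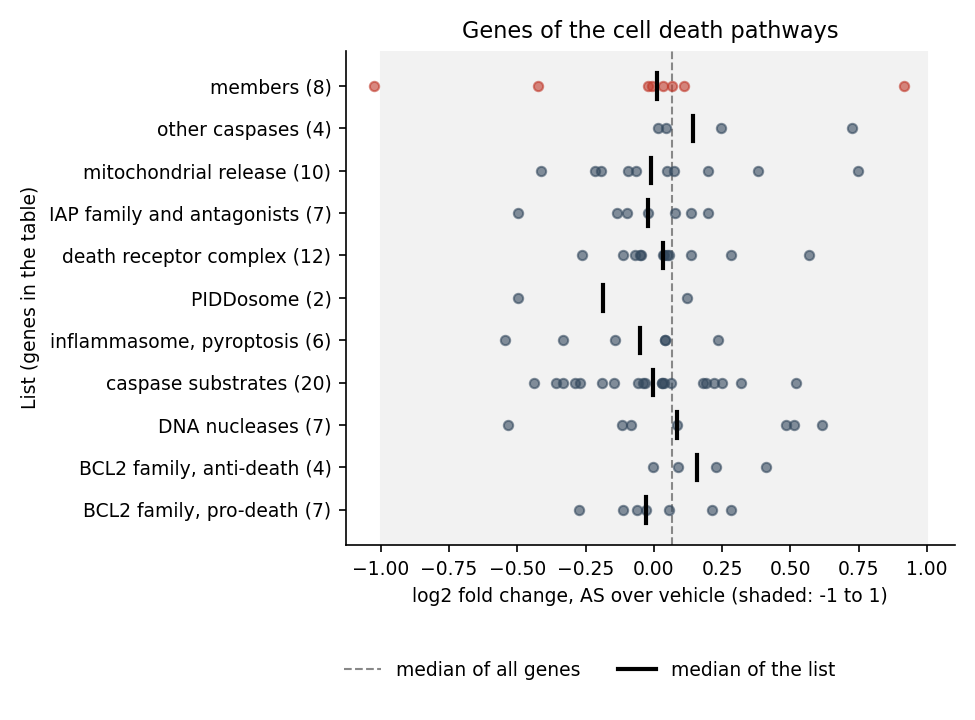
Log2 fold change of AS over vehicle for the 8 genes (red) and each gene of the 10 lists (dark), with the median of each list (black bar) and of all genes (dashed line). No gene of the lists lies outside the shaded band from -1 to 1, and Endog is the 1 point that does.

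The 20 caspase substrates in the table had a median of -0.0017 and lay between -0.44 and 0.52. The lowest was Lmnb1, the gene of lamin B1, with 118 RPKM in AS-treated and 160 RPKM in vehicle-treated cells. Vim, the intermediate filament gene vimentin, was the most abundant by the mean of both libraries, with 221 and 284 RPKM and a log2 fold change of -0.36. The highest fold change was that of Satb1, a chromatin organizer, with 0.600 and 0.389 RPKM. Among the 7 other nucleases, Dnase2a, the lysosomal DNase, had 13.0 RPKM in AS-treated and 8.43 RPKM in vehicle-treated cells (log2 fold change 0.62), and Fen1, the flap endonuclease of replication, had 9.91 and 14.4 RPKM (-0.53). Apex1, a base excision repair nuclease and the most abundant of them, had 52.8 and 57.2 RPKM (-0.12). In the BCL2 family, which controls the release of cytochrome c, the 4 anti-death genes had a median of 0.16 and the 7 pro-death genes a median of -0.027. Bcl2 had 7.37 RPKM in AS-treated and 5.52 RPKM in vehicle-treated cells (0.41), Mcl1 had 26.5 in both libraries, Bcl2l11 had 7.05 and 5.78 (0.28), Bmf had 3.49 and 4.24 (-0.27) and Bax had 34.6 and 37.4 (-0.11).

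**Figure D5:**
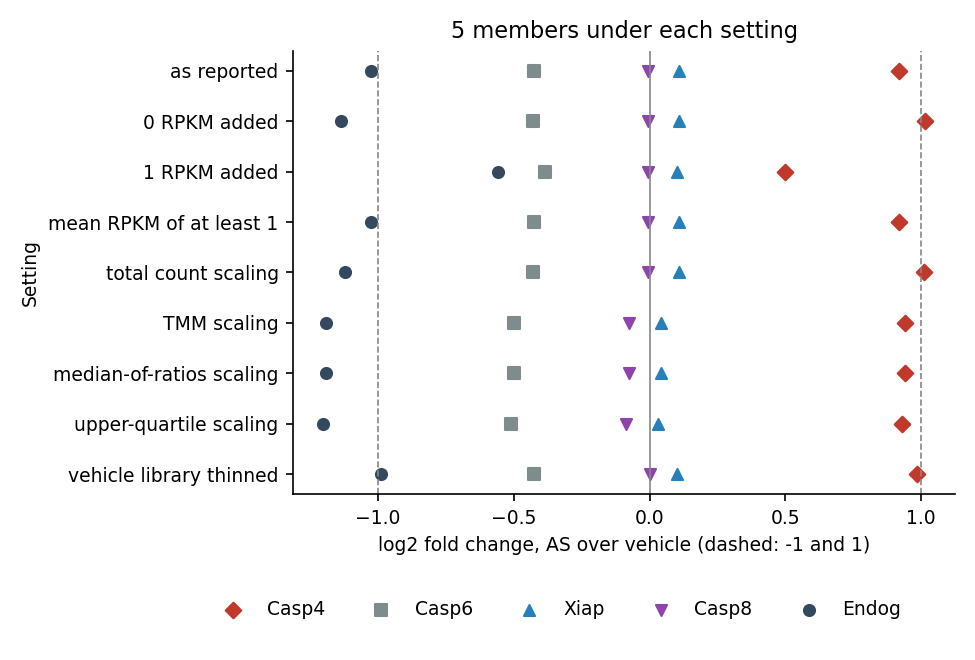
Log2 fold change of AS over vehicle of Casp4, Casp6, Xiap, Casp8 and Endog under each way of computing it, with dashed lines at -1 and 1. Casp4 and Endog cross a dashed line in some rows, while Casp6 stays between -0.51 and -0.38.

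With TMM scaling of the reads, to which 0.5 reads were added in place of 0.1 RPKM, the median of all genes was 0.00029. Casp9 was then at 0.00072 and Casp2, reported at 0.034, at -0.033. Casp4 was at 0.94 and Endog at -1.19 with TMM scaling, and with total count scaling of the same reads they were at 1.01 and -1.12. Under all 8 settings tried beside the reported one, Casp4 was higher in the AS library and Casp6 and Endog were lower. The settings could hardly have changed these directions. Added RPKM and a minimum level cannot change a sign, and the largest shift of the median of all genes was -0.077. All settings use the same 1 library per condition, so they say nothing of other cultures.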

How the data were processed

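RNA of 1 AS-treated and 1 vehicle-treated culture of 4T1 cells was sequenced from stranded mRNA libraries. The deposited table lists 14197 genes, and the authors gave for each the RPKM in both libraries, a log2 of the mean CPM over both libraries, and a fold change, p-value and FDR per gene; those last 3 columns were not used. The submitters' processing notes name fastp 0.23.4, STAR 2.5.3a and featureCounts, and GRCh38, a human build, while the symbols are of mouse genes. The strand setting, the annotation and the filter on low genes are not given in the sources used here. No gene was listed at 0.

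Multiplied by the exon lengths of GENCODE M21 (GRCm38), the RPKM gave whole reads in both libraries (within 0.01 reads or 1 in 1000000) for 12715 of 13502 genes with 1 entry there (94.2%), among them all 8 genes described. For 1482 other genes the reads came from the ratio of the RPKM values and the mean log2 CPM as deposited. The reads summed to 44816703 with AS and 50712175 with the vehicle. The steps were tested on simulated libraries. With 1 library per group there was no test, and fold changes, thresholds and intervals were as given in the report.

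The alternatives were 0 or 1 RPKM added, a minimum mean RPKM of 1, scaling of the reads (plus 0.5) by total count, by TMM, by the median of ratios or by the upper quartile, a thinned vehicle library and a ratio of 1.5 as threshold. The 8 genes, the lists and the motifs were chosen with earlier results of these data known. Of the lists, genes past the threshold, the highest, the lowest and the most abundant were named, and others are said to have been chosen after their values were seen; some genes of the lists are not reported here. Computations used Python 3.11.15, numpy 2.4.6, pandas 2.3.3 and scipy 1.17.1.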

Additional observations from a re-analysis of the deposited data

How the results depend on the processing

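No paired analysis was possible because each condition has 1 library, and for the same reason no library could be left out. Casp4 and Endog were the 2 of the 8 genes whose side of the threshold depended on the setting. Casp4 was counted as 1 gene higher with 0 RPKM added, with total count scaling and at a ratio of 1.5 as threshold, and its log2 fold change was 0.50 with 1 RPKM added. Endog was not past the threshold with 1 RPKM added or with the deeper vehicle library thinned, which left 0 genes lower. Scaling moved 2 genes by more than their counting error. Casp8 was at -0.076 with TMM, -0.076 with median-of-ratios and -0.087 with upper-quartile scaling, and Xiap at 0.041, 0.041 and 0.030. Over all genes, 161 were higher with 0 RPKM added, 38 with 1 RPKM added, 160 with total count scaling, 158 with thinning and 505 at 1.5-fold, beside 94 as reported. The number lower was 16 with 1 RPKM added, 82 with TMM, 83 with median-of-ratios, 88 with upper-quartile scaling, 67 with thinning and 286 at 1.5-fold, beside 44. At 1.5-fold, 1 gene each of the other caspases, the mitochondrial release list and the DNA nuclease list became counted as higher. Endog with 31 and 77 reads and Casp4 with 230 and 129 have the widest counting intervals of the 8 genes, and the spread between cultures cannot be measured.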

Other observations

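Ratios of levels between pairs of genes within a library were set beside each other as values. Xiap stood at 1.34 times the level of Casp6 with AS and 0.922 times with the vehicle, and Casp4 at 0.739 times the level of Casp12 with AS and 0.371 times with the vehicle. Casp4 stood at 0.834 times the level of Casp1 with AS and 0.713 times with the vehicle.

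Among the epithelial markers, the keratin genes were lower in the AS library and the junction genes Cdh1 and Cldn4 were higher. Krt19 had 136 RPKM with AS and 226 with the vehicle (log2 fold change -0.73), Krt8 had 372 and 540 (-0.54) and Krt7 had 119 and 170 (-0.52). Cldn4, a claudin of tight junctions, had 45.8 RPKM with AS and 34.2 with the vehicle (0.42), and Cdh1, the gene of E-cadherin, had 95.5 and 84.6 (0.17). Their part in the values of the caspase genes was not tested.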
